A study of Mus musculus with 5 samples.

Results

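The genes described here encode 7 ligands of the B7 family (Cd274, Pdcd1lg2, Cd80, Cd86, Icosl, Cd276 and Vsir) and 3 proteins of the CD47 and CD200 receptor checkpoints of phagocytes (Cd47, Sirpa and Cd200r1). They were taken by symbol from a table of 21990 mouse genes, and all 10 were found, with a value in every library. Messenger RNA was profiled in RAW264.7, a mouse monocyte/macrophage cell line, under 2 conditions. CD137 cells carried Renilla luciferase together with mouse Cd137, the co-stimulatory receptor encoded by Tnfrsf9, and control cells carried Renilla luciferase alone, so luciferase was present in both. Of 5 samples in the series (3 CD137 and 2 control), the 3 libraries analysed here are CD137 replicates 2 and 3 and control replicate 2. Nothing in the labels says how the genes were introduced, whether the cells were clones or whether the replicates were separate cultures, so the spread between the CD137 libraries may be technical. The control is a single library and has no replicate error. The study asks how Cd137 alters monocyte and macrophage behaviour in bone metastasis, and the comparison used here is that of cells with and without it.

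B7 family ligands sit on antigen-presenting cells and bind receptors on T cells. CD80 and CD86 bind CD28, which promotes T cell activation, and CTLA-4, which restrains it; ICOSL binds ICOS; PD-L1 and PD-L2 bind the inhibitory receptor PD-1; VISTA is mainly inhibitory, and the receptor of B7-H3 is not settled. SIRPα and CD200R1 are inhibitory receptors of the macrophage itself, triggered by CD47 and CD200 on a neighbouring cell, and CD47 is widely known as a signal that protects cells from being engulfed.

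Levels are given in FPKM, which divides fragments by transcript length and library total, so that genes can be compared per length. Tnfrsf9 was at 364 and 370 FPKM in CD137 replicates 2 and 3, against 5.06 FPKM in the control (mean 367 ± 4.00 FPKM, SD, n = 2, 72.6-fold). Of 10 macrophage markers 9 were at 1 FPKM or more in each library, the exception being Mrc1. Their sum was 2328 and 2386 FPKM in the CD137 libraries, against 3581 FPKM in the control, with Lyz2 at 646 and 669 FPKM in CD137 cells and 1693 FPKM in the control. Individual markers differed in both directions: Csf1r was at 339.9 and 344.7 FPKM in CD137 cells and 444 FPKM in the control, whereas Fcgr1 was at 89.9 and 95.2 FPKM in CD137 cells and 45.2 FPKM in the control, and Itgam at 79.1 and 79.2 FPKM in CD137 cells and 57.5 FPKM in the control. Adgre1 and Spi1 were also higher in both CD137 libraries than in the control, whereas Cd68, Cd14 and Tyrobp were lower in both. The part of the macrophage markers in the results below was not tested. The sum of 4 epithelial markers was 6.28 and 1.17 FPKM in CD137 replicates 2 and 3, against 0.67 FPKM in the control. The summed levels of the other marker lists were 0.77, 0.21 and 0.17 FPKM for fibroblasts, 5.21, 4.81 and 3.61 FPKM for T cells, 1.03, 1.92 and 0.65 FPKM for B cells and 1.64, 1.78 and 0.87 FPKM for dendritic cells, in CD137 replicate 2, CD137 replicate 3 and the control in that order. The T cell sum was mostly Lck, whereas Cd3e and Cd3g, like Ms4a1 among B cell markers, had no value in any library. Differences were tested with limma on log2(FPKM + 1) over 10720 genes at 1 FPKM or more in some library. "Rose" and "fell" stand for a Benjamini-Hochberg adjusted p under 0.05 in that fit, in which 42.6 percent of genes were called, 24.4 percent higher and 18.2 percent lower in CD137 cells. In a fit of all 16003 genes with a value, 0 genes passed (smallest adjusted p = 0.0802), although 5281 had an unadjusted p under 0.05; every call below is therefore lost without the filter on low values. The test takes its spread from the CD137 libraries and assumes that the control varies as they do.

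The B7 family genes moved in opposite directions while their summed level differed little. Cd80, Cd274 and Icosl rose, Vsir fell, and Cd276 and Cd86 did not pass. Cd86 was low in level and Pdcd1lg2 was near silent. The 7 genes summed to 58.6 and 58.0 FPKM in CD137 replicates 2 and 3, against 58.6 FPKM in the control. Vsir made up 25.8 and 25.9 percent of that sum in the CD137 libraries and 47.5 percent in the control. Cd80 made up 31.5 and 30.6 percent in the CD137 libraries, against 17.6 percent in the control. The level of Cd80 was 1.22 and 1.18 times that of Vsir in CD137 replicates 2 and 3 and 0.370 times that of Vsir in the control. These sums and shares are descriptions without a test.

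**Figure D1:**
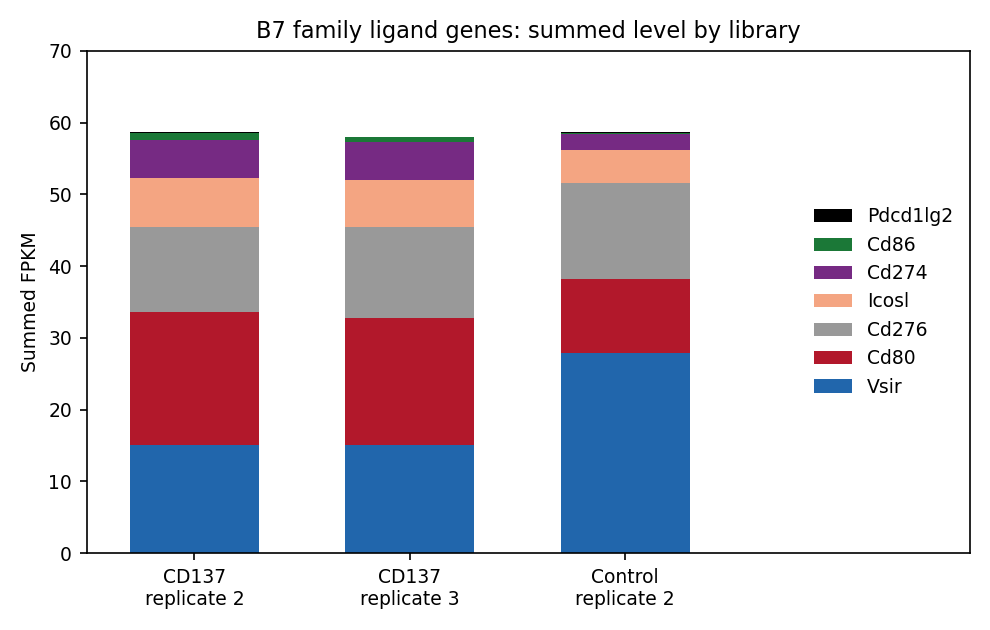
Stacked bars give the FPKM of the 7 B7 family ligand genes in CD137 replicates 2 and 3 and control replicate 2, from 0 on a linear axis. The bars reach 58.6, 58.0 and 58.6 FPKM; the Vsir block is 15.12 and 15.04 FPKM in the CD137 libraries and 27.9 FPKM in the control.

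Of the 10 genes, 9 entered the fit. Pdcd1lg2 stayed below 1 FPKM in every library, and Cd86 entered only through CD137 replicate 2, so that a gene of its level had to differ to be included. Among the 8 genes at 1 FPKM or more in both groups, 5 rose (Cd274, Cd80, Icosl, Cd47 and Cd200r1), 1 fell (Vsir) and 2 did not pass (Cd276 and Sirpa). Their median log2 difference was 0.46, beside 0.03 over all genes in the fit, of which 24.4 percent were called higher and 18.2 percent lower. In a bulk culture, fewer cells expressing a gene and less RNA per cell cannot be told apart.

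**Figure D2:**
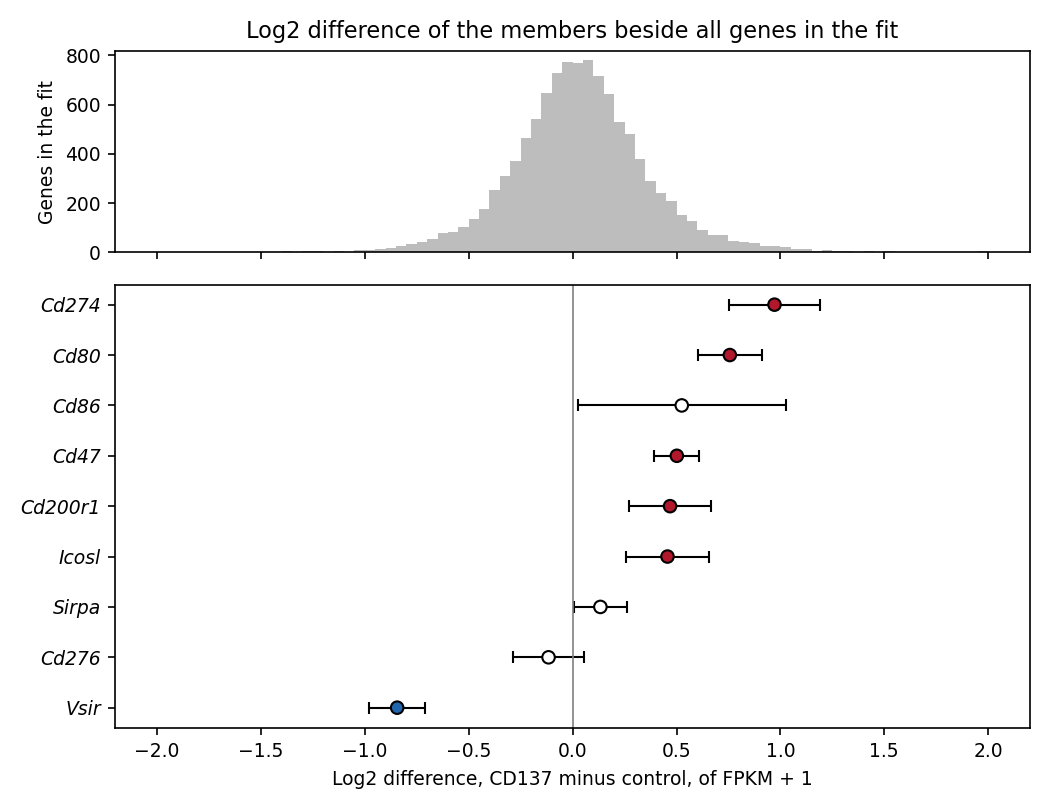
The lower panel gives the log2 difference of FPKM + 1, CD137 minus control, for the 9 genes in the fit, with 95 percent intervals from limma; red marks genes called higher, blue called lower, white not called. The upper panel counts all 10720 genes in the fit on the same axis, with differences beyond 2 in either direction placed in the end bars; only 0.746 percent of genes lie to the left of Vsir, and 98.8 percent lie to the left of Cd274.

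Cd274 encodes PD-L1, the main ligand of PD-1 (gene ID 60533, chromosome 19 from 29367438 to 29388095 on the plus strand in mm10). It was at 5.26 and 5.33 FPKM in CD137 replicates 2 and 3, against 2.21 FPKM in the control. CD137 cells averaged 5.30 ± 0.05 FPKM (SD, n = 2), 2.40 times the control level. On the log2(FPKM + 1) scale, which understates changes of low genes, the difference was 0.97 ± 0.08 (SE, limma adjusted p = 0.00195), higher than that of 98.8 percent of genes in the fit. Reads behind these values, solved from the authors' p-values, numbered 339 and 345 in the CD137 libraries and 145 in the control. The ratios to the control corrected for depth were 2.38 (95 percent interval 1.95 to 2.91) and 2.41 (1.98 to 2.94), intervals that cover counting error only.

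Of the 4 other genes in the fit within 150 kb of Cd274, 3 rose, where 24.4 percent of all genes did; with so few genes this is a description. Around the other called members, 2 of 7 such neighbours rose by Cd80, 1 of 6 fell by Icosl, 1 of 2 fell by Vsir, by Cd200r1 1 of 4 rose and 1 fell, and by Cd47 the only such neighbour did not pass. Plgrkt, which encodes a plasminogen receptor, is transcribed in the opposite direction, and its start lies 101 bases from that of Cd274 in the gene models of the table. It was at 53.4 and 58.4 FPKM in the CD137 libraries, against 31.9 FPKM in the control, and rose by a log2 difference of 0.79 ± 0.07 (SE, limma adjusted p = 0.00181). Insl6, an insulin-like peptide gene 42.1 kb away, was at 13.3 and 12.4 FPKM in CD137 cells, against 6.53 FPKM in the control, and rose as well (log2 difference 0.88 ± 0.07, SE, limma adjusted p = 0.00172). Jak2, the kinase downstream of the interferon gamma receptor, rose 1.32-fold, to 16.6 and 16.2 FPKM in CD137 cells, against 12.4 FPKM in the control. On the other side, Ric1 was at 7.76 and 7.05 FPKM in CD137 cells and 7.08 FPKM in the control and did not pass. Strandedness is not given in the sources used here, so reads from overlapping transcripts of opposite strands, should Cd274 and Plgrkt produce any, could not be told apart. The RefSeq model of Cd274 starts at 29362107, inside Plgrkt.

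**Figure D3:**
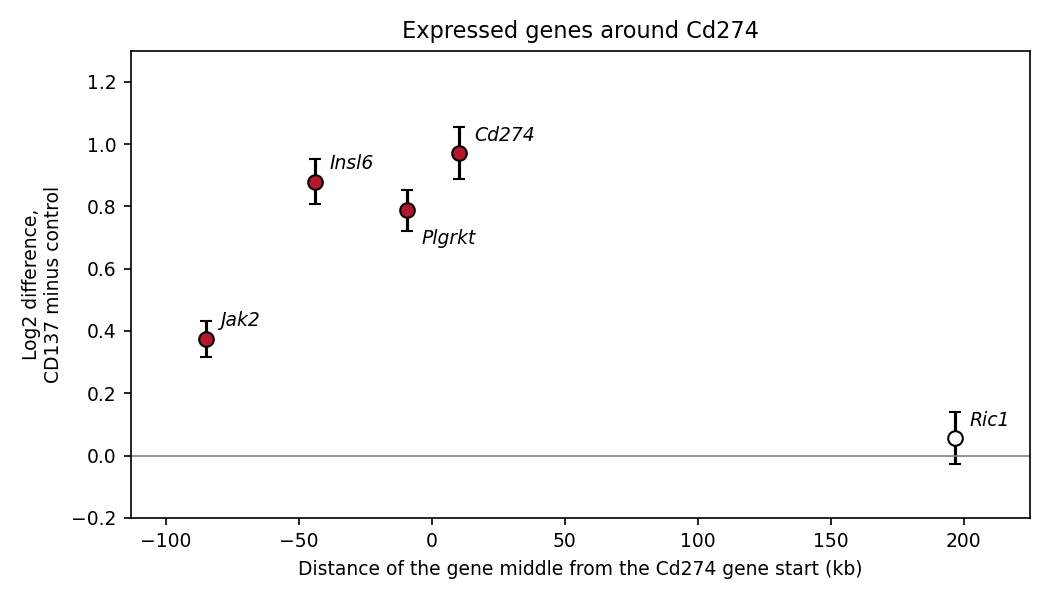
Each point is an expressed gene whose nearer end lies within 150 kb of Cd274, or Cd274 itself, placed by the distance of its middle from the Cd274 start in kb, with its log2 difference of FPKM + 1 (CD137 minus control) and SE from limma. Filled points passed the test and the open point did not: Jak2, Insl6, Plgrkt and Cd274 lie above 0 and Ric1, at 0.06, close to it.

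RefSeq promoter windows, from 250 bases before to 50 after the annotated start on GRCm38.p6, the assembly of mm10, were found for 7 of the 10 genes. Those of the 4 B7 genes that were called, and of near-silent Pdcd1lg2, are given to show the sequence around their starts, 5′ to 3′ on the gene's strand. The Cd274 window (chr19:29367188-29367487, plus strand) spans the gap to Plgrkt, and its capitals mark the bases between both gene models. In the windows of Cd80 (chr16:38458683-38458982, plus strand), Icosl (chr10:78069118-78069417, plus strand) and Pdcd1lg2 (chr19:29410669-29410968, plus strand) capitals mark matches to a motif. The window of Vsir (chr10:60346601-60346900, plus strand) held none and is in lower case.
Cd274: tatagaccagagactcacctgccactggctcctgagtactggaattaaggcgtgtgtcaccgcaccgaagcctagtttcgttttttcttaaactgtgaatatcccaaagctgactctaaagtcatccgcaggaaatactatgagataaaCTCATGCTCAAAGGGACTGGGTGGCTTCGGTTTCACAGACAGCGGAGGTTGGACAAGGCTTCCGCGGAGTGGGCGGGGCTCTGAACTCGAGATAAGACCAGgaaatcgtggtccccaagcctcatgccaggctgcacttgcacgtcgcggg
Cd80: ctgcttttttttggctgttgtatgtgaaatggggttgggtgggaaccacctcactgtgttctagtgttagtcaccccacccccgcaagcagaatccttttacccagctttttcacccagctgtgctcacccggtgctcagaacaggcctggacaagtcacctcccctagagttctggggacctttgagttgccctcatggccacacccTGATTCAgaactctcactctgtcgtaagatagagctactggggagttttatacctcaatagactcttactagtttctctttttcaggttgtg
Icosl: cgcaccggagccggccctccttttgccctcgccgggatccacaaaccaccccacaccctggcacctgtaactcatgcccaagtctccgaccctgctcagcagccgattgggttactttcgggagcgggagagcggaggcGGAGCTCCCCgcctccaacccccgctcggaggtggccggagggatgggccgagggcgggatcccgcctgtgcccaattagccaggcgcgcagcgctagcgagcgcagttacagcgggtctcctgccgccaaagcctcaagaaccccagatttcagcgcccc
Pdcd1lg2: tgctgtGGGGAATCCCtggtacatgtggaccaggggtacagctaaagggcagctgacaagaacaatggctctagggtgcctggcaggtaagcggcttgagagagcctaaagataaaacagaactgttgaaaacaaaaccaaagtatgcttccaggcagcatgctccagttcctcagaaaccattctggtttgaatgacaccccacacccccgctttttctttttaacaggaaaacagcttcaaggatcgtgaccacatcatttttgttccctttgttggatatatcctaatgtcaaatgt
Vsir: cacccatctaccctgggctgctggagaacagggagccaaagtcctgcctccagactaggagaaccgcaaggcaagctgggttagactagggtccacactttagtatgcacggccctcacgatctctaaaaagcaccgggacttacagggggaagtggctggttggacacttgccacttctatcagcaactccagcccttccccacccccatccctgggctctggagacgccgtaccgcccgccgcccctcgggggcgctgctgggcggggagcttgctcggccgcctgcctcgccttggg
In all, 4 motifs were searched on both strands. They were the standard NF-kB consensus, the core of the interferon-stimulated response element (ISRE, a pair of GAAA repeats with any 2 bases between them), the AP-1 site TGANTCA and the STAT site TTCNNNGAA. The NF-kB consensus matched in Icosl (minus strand, from -111 relative to the start) and Pdcd1lg2 (from -244), and in 8.46 percent of all 32851 windows of the same length. TGANTCA matched in Cd80 (from -42) and in 7.81 percent of all windows. The ISRE core and TTCNNNGAA, found in 3.44 and 8.30 percent of all windows, matched in none of the 7 genes, and the windows of Cd274, Vsir, Cd276 and Cd47 held no match to any of the 4. The Cd80 window starts from another transcript start than the gene model of the table. So do both windows of Cd47, at 49855654 and 49855661, against a gene model start of 49855253. A match is a description of letters, not of binding.

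Pdcd1lg2, which encodes PD-L2 (gene ID 58205), begins 22.8 kb beyond the end of Cd274. Unlike its neighbour it was barely detected, at 0.03 and 0.07 FPKM in CD137 replicates 2 and 3 and 0.02 FPKM in the control. These values rest on 2 and 4 reads in the CD137 libraries and 1 read in the control. The ratio to the control was 2.03 (95 percent interval 0.106 to 120.1) and 4.05 (0.401 to 199.4), so no difference was detectable at this depth.

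Cd80 encodes B7-1 (gene ID 12519, chromosome 16 from 38457431 to 38495958 on the plus strand). It was at 18.5 and 17.8 FPKM in CD137 replicates 2 and 3, against 10.3 FPKM in the control. CD137 cells averaged 18.1 ± 0.52 FPKM (SD, n = 2), 1.76 times the control level, with a log2 difference of 0.76 ± 0.06 (SE, limma adjusted p = 0.00164). The gene has 4 transcripts in the table and 695, 668 and 371 reads in CD137 replicates 2 and 3 and the control. Corrected for depth, the reads gave ratios of 1.91 (95 percent interval 1.68 to 2.17) and 1.82 (1.60 to 2.07), slightly above the FPKM ratios of 1.79 and 1.72. By level, Cd80 held rank 3 of the 10 genes in CD137 cells and rank 5 in the control.

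Cd86, which encodes B7-2 and shares the receptors of CD80 (gene ID 12524, chromosome 16 from 36603869 to 36666077 on the minus strand), was expressed far less. It was at 1.03 and 0.62 FPKM in CD137 replicates 2 and 3, against 0.26 FPKM in the control, on 46, 28 and 12 reads. The CD137 mean of Cd86 was 3.17 times the control level. Its log2 difference of 0.53 ± 0.19 (SE, limma adjusted p = 0.0853), on a scale that understates changes of low genes, did not pass. The CD137 libraries differed from each other, and the ratio of its reads to the control was 3.9 (95 percent interval 2.03 to 8.09) in CD137 replicate 2 and 2.36 (1.16 to 5.10) in CD137 replicate 3. CD137 replicate 2 is also the library with the highest epithelial marker sum, with Krt8 at 2.60 FPKM, against 0.66 FPKM in CD137 replicate 3 and 0.25 FPKM in the control; the part of this in the Cd86 value was not tested. Without CD137 replicate 2 the log2 difference of Cd86 was 0.36, a value with no test. In FPKM, Cd80 was 17.96 and 28.65 times the level of Cd86 in the CD137 libraries and 39.7 times in the control.

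Icosl, the ligand of ICOS (gene ID 50723, chromosome 10 from 78069368 to 78079525 on the plus strand), was at 6.84 and 6.56 FPKM in CD137 replicates 2 and 3, against 4.61 FPKM in the control. Both CD137 libraries lay above the control, and the gene rose 1.45-fold, with a log2 difference of 0.46 ± 0.08 (SE, limma adjusted p = 0.00971). It was covered by 331 and 319 reads in the CD137 libraries and 227 in the control, and its ratios of 1.48 (95 percent interval 1.25 to 1.76) and 1.42 (1.196 to 1.69) exceeded 1 by more than counting error.

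Cd276 encodes B7-H3 (gene ID 102657, chromosome 9 from 58524300 to 58555033 on the minus strand). It was at 11.9 and 12.6 FPKM in CD137 replicates 2 and 3, against 13.3 FPKM in the control, so both CD137 values were lower, but the log2 difference of -0.12 did not pass (95 percent interval -0.29 to 0.06, limma adjusted p = 0.219). On 669, 716 and 766 reads, the ratio to the control was 0.889 (0.800 to 0.987) for CD137 replicate 2 and 0.946 (0.853 to 1.05) for CD137 replicate 3. Counting error alone thus left CD137 replicate 2 below the control, whereas the interval of CD137 replicate 3 included 1.

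Vsir encodes VISTA (gene ID 74048, chromosome 10 from 60346851 to 60372684 on the plus strand). It fell to 15.12 and 15.04 FPKM in CD137 replicates 2 and 3, against 27.9 FPKM in the control. CD137 cells averaged 15.1 ± 0.06 FPKM (SD, n = 2), 0.541 of the control level, and the log2 difference was -0.84 ± 0.05 (SE, limma adjusted p = 0.00109). Only 0.746 percent of genes in the fit had a lower log2 difference. There were 1298 reads in each CD137 library and 2434 in the control, and the ratios of 0.543 (95 percent interval 0.507 to 0.581) and 0.540 (0.504 to 0.578) were nearly the same in both. The gene lies inside the gene model of Cdh23 on the opposite strand, which encodes a cadherin and was at 0.24 and 0.14 FPKM in the CD137 libraries and 0.10 FPKM in the control. Psap, 44.3 kb before Vsir and the precursor of the saposins, was at 362 and 366 FPKM in CD137 cells and 367 FPKM in the control and did not pass.

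Of the checkpoint proteins of phagocytes, Cd47 and Cd200r1 rose and Sirpa did not pass. Cd47 (gene ID 16423, chromosome 16 from 49855253 to 49912424 on the plus strand) was at 59.5 and 59.1 FPKM in CD137 replicates 2 and 3, against 41.6 FPKM in the control. The 1.43-fold difference, 0.50 ± 0.04 on the log2 scale (SE, limma adjusted p = 0.00182), was well outside the spread between the CD137 libraries. Sirpa, the receptor of CD47 (gene ID 19261, chromosome 2 from 129592665 to 129632228 on the plus strand), was the most abundant of the 10 genes, at 133 and 141 FPKM in the CD137 libraries and 125 FPKM in the control. It exceeded the level of 96.4 to 97.0 percent of all genes with a value in each library. The log2 difference of 0.13 ± 0.05 had an adjusted p = 0.0843 (limma; 95 percent interval 0.01 to 0.26). The level of Sirpa relative to Cd47 was 2.23 and 2.39 in the CD137 libraries and 2.998 in the control, without a test. Sirpa has close relatives in the Sirpb1 genes, so the division of reads among them is uncertain; Sirpb1a was at 2.45 and 2.53 FPKM in CD137 cells and 2.40 FPKM in the control. Whole reads could not be solved uniquely for Cd47 or Sirpa.

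Cd200r1, the inhibitory receptor of CD200 (gene ID 57781, chromosome 16 from 44765736 to 44794977 on the plus strand), rose to 15.3 and 13.9 FPKM in CD137 replicates 2 and 3, against 10.2 FPKM in the control. The fold change was 1.42 and the log2 difference 0.47 ± 0.08 (SE, limma adjusted p = 0.00904), on 505, 461 and 344 reads. The related genes that follow on the same chromosome did not pass. Cd200r2 was at 11.9 and 13.9 FPKM in CD137 cells and 14.1 FPKM in the control, and Cd200r4 at 1.29 and 1.26 FPKM in CD137 cells and 1.57 FPKM in the control. Cd200r3 stayed under 1 FPKM, and whether Cd200r1 differs from its relatives in response was not tested. These genes are similar in sequence and reads may be divided between them with error. Cd200, the ligand, had no value in any library.

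**Figure D4:**
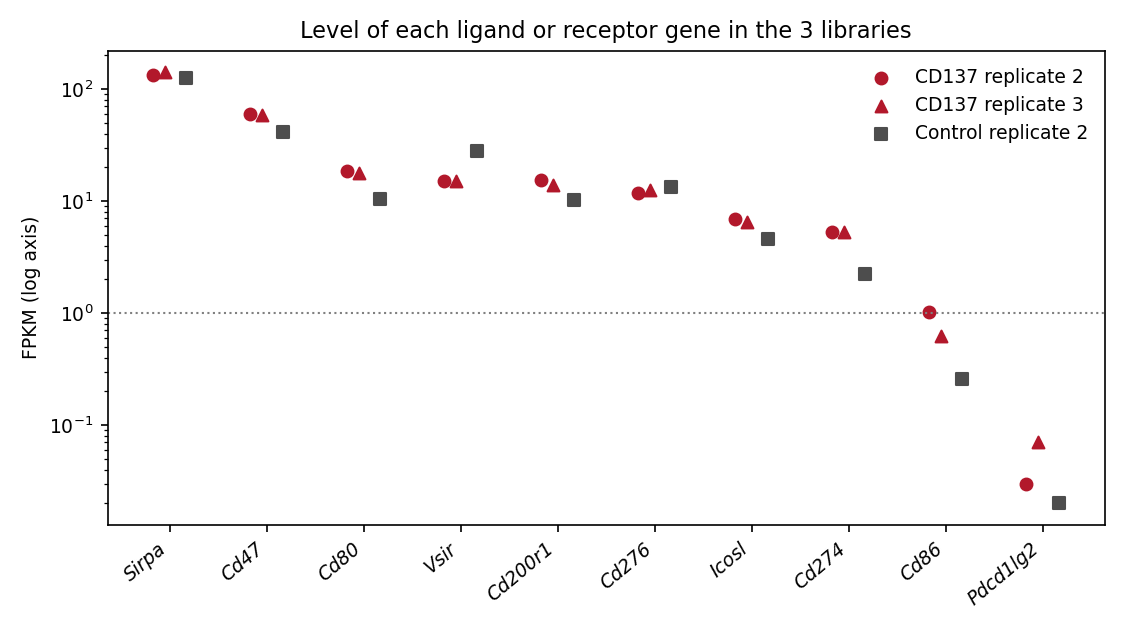
Points give the FPKM of each gene on a log axis in CD137 replicates 2 and 3 (red) and control replicate 2 (grey), ordered by the CD137 mean; the dotted line marks 1 FPKM. Sirpa and Cd47 lie highest and Cd86 and Pdcd1lg2 lowest, and among the 8 genes above 1 FPKM in all libraries the control point lies above both CD137 points only for Vsir and Cd276.

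In order of the CD137 mean, the genes ran Sirpa, Cd47, Cd80, Vsir, Cd200r1, Cd276, Icosl, Cd274, Cd86 and Pdcd1lg2. The CD137 values of neighbours in this order did not overlap, except those of Vsir and Cd200r1 (15.04 to 15.12 FPKM for Vsir and 13.86 to 15.26 FPKM for Cd200r1). In the control the order was Sirpa, Cd47, Vsir, Cd276, Cd80, Cd200r1, Icosl, Cd274, Cd86 and Pdcd1lg2, with Cd80 and Cd200r1 almost level at 10.3 and 10.2 FPKM. The CD137 libraries were close to each other for most of the genes. For the same pair, the authors' deposited table gives Poisson p-values: the comparison of CD137 replicates 3 and 2 had p = 0.00139 for Sirpa and 0.0350 for Cd86, and p from 0.135 to 0.896 for the other 8 genes.

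By the distance between their log2 differences from the control in both CD137 libraries, the genes of at least 10 FPKM on average most like Cd274 were Acap1, Cyb561a3 and Cyb5r1. Acap1 was at 16.3 and 16.5 FPKM in the CD137 libraries, against 7.89 FPKM in the control (distance 0.00341). In FPKM, Acap1, Cyb561a3 and Cyb5r1 were at 2.08, 2.02 and 1.96 times the control, against 2.40 times for Cd274. The distance was taken on log2(FPKM + 1), which understates changes of low genes such as Cd274. Most like Vsir were Mcm3, Hspa8 and 1190002N15Rik, at 0.555, 0.552 and 0.539 of the control. With 3 libraries many genes share such a pattern, so this is a description only.

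Other ligands and partners of co-stimulation on antigen-presenting cells were also mostly higher in CD137 cells. Of 26 on the list 13 were in the fit, of which 9 rose, 2 fell and 2 did not pass, with a median log2 difference of 0.37, beside 24.4 percent higher, 18.2 percent lower and a median of 0.03 over all genes. Cd40, the receptor through which T cell help activates antigen-presenting cells, was at 20.0 and 19.4 FPKM in CD137 replicates 2 and 3, against 4.15 FPKM in the control, on 589, 571 and 124 reads. Tnfsf9, the ligand of CD137 itself, was at 72.2 and 74.5 FPKM in CD137 cells, against 56.5 FPKM in the control, which placed it above Cd47 in level. The adhesion ligand Icam1 rose 1.68-fold, the galectin Lgals9 1.73-fold, Nectin2, a ligand of CD226 and TIGIT, 1.78-fold, and Havcr2, which encodes TIM-3, 1.36-fold. The 2 that fell were Cd48, a ligand of CD244, at 7.45 and 5.65 FPKM in CD137 cells and 10.4 FPKM in the control, and Cd24a, a surface glycoprotein gene, at 2.44 and 1.34 FPKM in CD137 cells and 5.57 FPKM in the control; both were named after their values were seen. Tnfsf4 and Cd70 were below 0.3 FPKM in every library.

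Among 15 checkpoint receptors and binding partners, 4 reached 1 FPKM in some library and were in the fit, and limma called 0 of them, with 0 at an unadjusted p under 0.05. Pdcd1, which encodes PD-1, was at 7.79 and 8.15 FPKM in CD137 replicates 2 and 3 and 8.76 FPKM in the control, on 269, 283 and 308 reads. The level of Cd274 relative to Pdcd1 was 0.675 and 0.654 in the CD137 libraries and 0.252 in the control, without a test. Tigit was at 1.57 and 2.06 FPKM in CD137 cells and 1.17 FPKM in the control, and did not pass. Rgmb, a binding partner of PD-L2, was at 2.60 and 2.74 FPKM in CD137 cells and 2.19 FPKM in the control, and Treml2 was close to 1 FPKM in every library; neither passed. Cd28 and Ctla4 were at or below 0.13 FPKM in every library, on at most 9 reads.

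On the list of the CD47-SIRP and CD200R axis, 3 of 16 genes in the fit rose, 5 fell and 8 did not pass (median log2 difference -0.07). Beside 42.6 percent of all genes called, 24.4 percent higher and 18.2 percent lower, this share is no result about the list. Calr, which encodes calreticulin, a chaperone that promotes engulfment when exposed at the surface, was at 299 FPKM in both CD137 libraries, against 568 FPKM in the control. Lrp1, the receptor that recognises it, fell to 45.0 and 44.3 FPKM in CD137 cells, against 58.7 FPKM in the control. Ptpn6, which encodes SHP-1, the phosphatase recruited by SIRPα, fell to 0.851 and the kinase gene Ptk2b to 0.690 of the control. Rasa1, which encodes the Ras GTPase-activating protein recruited downstream of CD200R1, rose 1.33-fold, whereas Dok2, the adaptor that links them, fell to 0.808 of the control. Skap2, an adaptor in SIRPα signalling, rose 1.15-fold. Qpct, one of the glutaminyl cyclase genes, rose to 2.63 and 2.98 FPKM in CD137 cells, against 1.28 FPKM in the control, while its relative Qpctl, whose product modifies CD47 at the site bound by SIRPα, was at 7.82 and 9.18 FPKM in CD137 cells and 7.44 FPKM in the control and did not pass.

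Among regulators of PD-L1 level, 12 of 20 genes in the fit rose, 2 fell and 6 did not pass. The median log2 difference of the 20 was 0.20. Over all genes in the fit, 24.4 percent were called higher and 18.2 percent lower, with a median of 0.03. The list was not divided by whether a gene raises or lowers PD-L1, so these counts give no direction for PD-L1. Myc, a transcription factor gene, was at 6.57 and 6.49 FPKM in CD137 replicates 2 and 3, against 2.56 FPKM in the control. Bcl3, an NF-kB cofactor, was at 6.48 and 6.63 FPKM in CD137 cells, against 2.79 FPKM in the control. Irf1, a transcription factor of the interferon response known to act on the PD-L1 gene, rose 1.49-fold, Jak2 1.32-fold, Stat3 1.23-fold and the kinase gene Gsk3b 1.396-fold. The 2 that fell, Irf2 and Cops5, were at 0.842 and 0.894 of the control. Cmtm6, whose product keeps PD-L1 at the surface, rose 1.16-fold. Without the mean-variance trend the list had 6 genes higher and 0 lower, and with quantile normalization 8 higher and 2 lower.

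**Figure D5:**
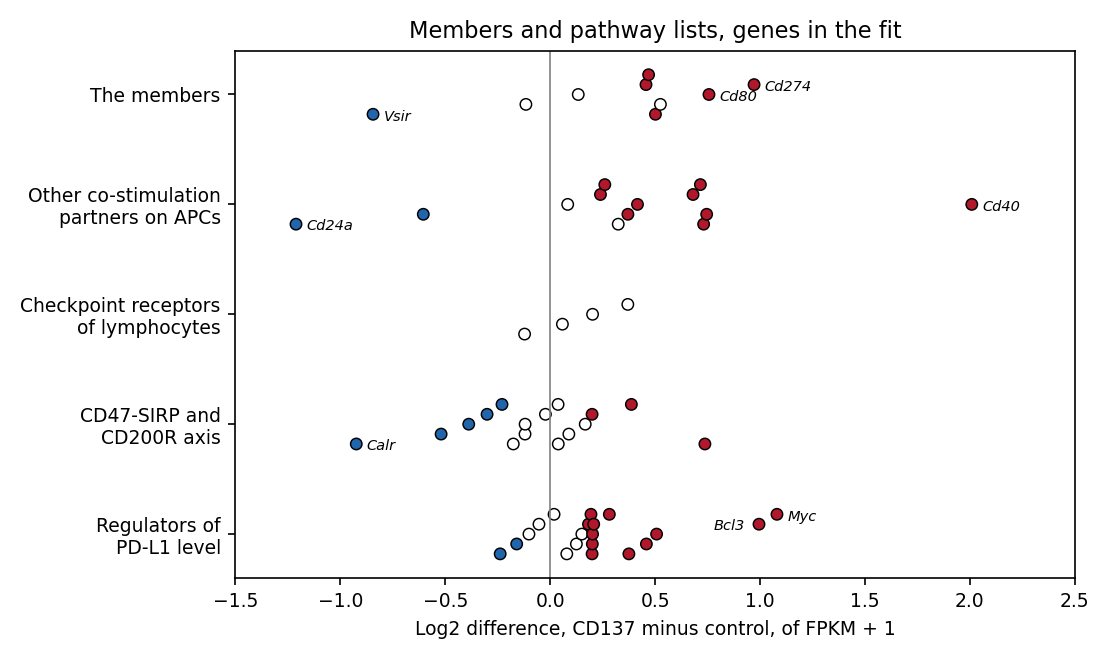
Each point is a gene in the fit, placed by its log2 difference of FPKM + 1 (CD137 minus control), for the members and 4 pathway lists; red points rose, blue fell and white did not pass, and genes beyond 0.75 in either direction are named. Cd40 lies farthest to the right at 2.01 and Cd24a farthest to the left at -1.21.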

How the data were processed

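FPKM values, 1 for each gene in each library, were deposited by the authors to 2 decimals, together with log2 ratios between pairs of libraries, p-values of a Poisson test on those pairs and adjusted values that exceed 1 for some genes and were treated as a score, per the file headers. The log2 ratios equal those of the deposited FPKM within 0.001, checked where both values are above 0. Per the submitters' processing notes, HISAT2, Bowtie2, RSEM and mm10 were used, but neither their order nor versions are given. RNA was selected by oligo-dT beads, as the labels' protocols state.

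Groups came from the sample titles. Of 21990 genes, 16003 have a value; 1 broken line was left out. Members, lists, tests and alternatives were chosen with earlier results of these data known, and every p-value was adjusted over all genes of its fit. The test was limma 3.58.1 in R 4.3.3 on log2(FPKM + 1), with a mean-variance trend, for genes at 1 FPKM or more in some library.

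Depth is not given in the files. Deposited p-values were read as 2 times the smaller tail of the distribution that a Poisson comparison of 2 libraries gives (negative binomial). Of 87 genes tried, 76 had exactly 1 solution in whole reads (or fragments), 3 had several and 8 had none; 8 of the 10 genes described were among the 76. The read ratio had to lie within 3 percent of the FPKM ratio, or 10 percent for genes with several transcripts. Relative to the control, the depth found was 0.983 (CD137 replicate 2) and 0.988 (CD137 replicate 3). Intervals (exact, 95 percent) cover counting error only. The fit and the read solution were tested on simulated data.

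Named genes are the members, Tnfrsf9, up to 6 expressed genes with the smallest p from each list, and the 3 genes nearest to Cd274 and to Vsir in their differences; other names were chosen after their values were seen. Promoters are from RefSeq (GRCm38.p6). Figures were drawn with matplotlib 3.10.9.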

Additional observations from a re-analysis of the deposited data

How the results depend on the processing

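Without the filter on low values, limma called 0 of the 10 genes (6 had an unadjusted p under 0.05), 0 genes in all and 0 on any list; the log2 differences were as before for Cd274 (0.97), Cd80 (0.76), Icosl (0.46), Vsir (-0.84), Cd47 (0.50) and Cd200r1 (0.47), with adjusted p from 0.0802 to 0.125. Under the other alternatives with a test (a pseudocount of 0.1, a filter at 5 FPKM, upper quartile scaling, quantile normalization, no mean-variance trend) these 6 kept their direction and their call, with adjusted p from 2.97e-08 to 0.0263. Sirpa passed with quantile normalization (0.16, adjusted p = 0.0495; 0.0495 to 0.277 over the alternatives) and Cd86 with upper quartile scaling (0.52, adjusted p = 0.0381; 0.0381 to 0.424 over the alternatives); the cause was not tested. The log2 difference of Cd86 ranged from 0.23 with quantile normalization to 1.33 with a pseudocount of 0.1. Without the mean-variance trend, 1 gene on the co-stimulation list was lower, and 6 on the list of PD-L1 regulators were higher and 0 lower. With quantile normalization, 8 PD-L1 regulators were higher and 2 lower. Leaving out CD137 replicate 2 or 3 leaves 1 library a group and so values with no test and no counts of calls; no direction changed, and the widest range was that of Cd86, 0.36 to 0.69. No paired analysis was possible because only 1 replicate number is shared by the groups. Few reads lay behind Cd86 (46, 28 and 12) and Pdcd1lg2 (2, 4 and 1), in CD137 replicates 2 and 3 and the control in that order. The part of depth in their results was not tested.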

Other observations

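Genes around Cd80 and Vsir were looked at after the values of the members were seen. Of the expressed genes within 150 kb of Cd80, its nearest neighbours Timmdc1 (14.95 and 14.28 FPKM in CD137 replicates 2 and 3, 14.1 FPKM in the control) and Adprh (46.2 and 44.4 FPKM in CD137 cells, 41.6 FPKM in the control) did not pass in limma. Poglut1, 29.1 kb away, was at 20.1 and 20.2 FPKM in CD137 cells, against 16.7 FPKM in the control (log2 difference 0.25, limma adjusted p = 0.0174), and Tmem39a, 62.7 kb away, was at 29.4 and 30.5 FPKM in CD137 cells, against 20.9 FPKM in the control (log2 difference 0.50, adjusted p = 0.00284). Chst3, a sulfotransferase gene 126 kb from Vsir, was at 3.07 and 2.91 FPKM in CD137 cells, against 5.77 FPKM in the control (log2 difference -0.76, limma adjusted p = 0.00375).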
